A study of Homo sapiens with 6 samples.

Results

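The histone genes of THP1, a cell line grown from a human acute monocytic leukemia, were followed after 6 h of Withaferin A (WFA), a steroidal lactone, or of its DMSO vehicle. A gene was taken as a clustered replication histone if its older symbol began with HIST1H to HIST4H, and as a variant histone if it was an H1F, H2AF or H3F3 symbol. This rule gave 89 of the 26485 genes in the count table, 73 clustered and 16 variant. GENCODE lists 3 of the clustered members, HIST1H2APS1, HIST2H2BA and HIST2H2BC, as pseudogenes.

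DNA is wound around octamers of the core histones H2A, H2B, H3 and H4, and linker histone H1 closes the turns. Clustered histone genes supply most of the histone protein of S phase and typically have no introns, though some annotated models here do. Their messages normally end in a short stem-loop instead of a poly(A) tail. The stem-loop binding protein SLBP and the U7 snRNP direct that cut, whereas a cut further on at a poly(A) signal gives a polyadenylated histone message. Variant histones such as H2A.Z, macroH2A and H3.3 are made throughout the cell cycle from ordinary polyadenylated messages. The TruSeq RNA v2 libraries used here capture RNA through its poly(A) tail, so stem-loop messages of the clustered genes are not captured by design. Which form of RNA gave the counts was not measured.

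Both groups were THP1 cells for which no other treatment is labelled, and each had 3 libraries from 3 independent experiments. WFA was at 1 mM according to the labels and at 1 µM according to the methods of the study. A bulk library cannot tell fewer cells that express a gene from less RNA of that gene per cell. Total counts lay between 11006035 and 13872810 per library, and all 8 monocytic marker genes examined were tested. Of them, 4 were called lower, with log2 fold changes between -1.22 and -0.34, and 1 higher, with 0.37. Over all tested genes, 24.7% were called lower and 25.8% higher. The summed monocytic level was 2340 to 2860 CPM with DMSO and 2120 to 2880 CPM with WFA, in counts scaled to a common library size with TMM factors (CPM). Among 10 markers of other cell types, COL1A1 had 3, 4 and 10 counts with DMSO and 107, 106 and 135 with WFA, and PECAM1, which monocytes also express, was lower. The 10 markers summed to 355 to 402 CPM with DMSO and 317 to 336 CPM with WFA, most of it PECAM1, and HBB and HBG1 were at 0. The part of these markers in the results below was not tested.

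The stem-loop and the poly(A) signal are shown first because they decide how a histone message can enter such a library. All GENCODE 29 transcripts (GRCh38) were searched for 16 bases that form a perfect stem of 6 base pairs beginning with GG around a loop of 4 bases beginning with TT. This pattern was in 217 of 83129 protein-coding transcripts (0.261%) and in 119 of 19669 genes (0.605%). It was in 30 of the 73 clustered members and in 1 of the 16 variants, H2AFX. The models of 34 clustered members, among them HIST1H2BK and HIST1H1C, end at the stop codon and could not show it. In the sites below, taken from genes whose RNA differed between DMSO and WFA, capitals mark the stem and loop.
HIST2H2BE: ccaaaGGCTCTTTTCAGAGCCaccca
HIST1H2AC: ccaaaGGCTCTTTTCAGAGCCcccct
HIST1H2BD: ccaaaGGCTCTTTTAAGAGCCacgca
HIST1H2BC: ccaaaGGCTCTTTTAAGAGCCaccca
HIST1H4H: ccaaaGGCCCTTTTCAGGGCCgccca
H2AFX: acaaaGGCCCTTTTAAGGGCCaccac

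The annotated transcripts of several of these genes run on past the stem-loop, by 1729 bases in HIST2H2BE, 1655 in HIST1H4H, 1128 in HIST1H2AC, 1044 in H2AFX, 116 in HIST1H2BC and 39 in HIST1H2BD. A stem-loop followed by 100 or more bases was found in 21 clustered members. Of these, 16 also had a poly(A) signal, AATAAA or ATTAAA, within the last 40 bases of any of their transcripts. Among all protein-coding transcripts, counted singly, 42.9% had such a signal. A count of genes and a share of transcripts are unlike measures and cannot be compared directly. The stem-loop transcripts used for HIST1H2BC and H2AFX had no signal there, though another transcript of each gene did. The signals of the transcripts named for HIST2H2BE, HIST1H2AC, HIST1H4H and HIST1H2BD are printed with the hexamer in capitals.
HIST2H2BE: ttgttattAATAAAgttaccaa
HIST1H2AC: catgaggtAATAAAaggtaatg
HIST1H4H: tgtgaaaaAATAAAtgtttaag
HIST1H2BD: atgttttcAATAAAtgagttgt

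Of the clustered members, 58 had a count in at least 1 library and 15 had none. In 19 of the 58, no library had more than 3 counts, and 30 were counted in all 6 libraries. The edgeR filter on low counts was passed by 14, of which 2 of 6 encode H1, 3 of 18 H2A, 7 of 20 H2B, 0 of 14 H3 and 2 of 15 H4. H2B genes were thus the best represented, and no clustered H3 gene could be tested. Of the variant members, 12 had a count and 9 were tested.

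Near-identical copies exist for many members. For every member, the share of its 50-base words that also occur in another gene was computed from GENCODE transcripts. The 15 clustered members without a count had a median share of 73.6%, and 7 of them had 90% or more, among them the twin genes HIST2H2AA3 and HIST2H2AA4, HIST2H3A and HIST2H3C, and HIST2H4A and HIST2H4B. Of the 44 clustered members with counts that were not tested, 2 reached 90%. The variant genes H2AFB1, H2AFB2 and H2AFB3 also had 90.7% or more and no count. How the authors' counting treated reads that fit several genes is not given in the sources used here, so a zero of these genes says nothing of their RNA. Other zeros were in genes that share little, such as HIST1H1A, HIST1H2AA, HIST1H2BA and HIST3H3 with no shared word, and HIST1H3D had 10 counts with all words shared. The part of shared reads in the zeros was not tested. Among the tested genes, HIST1H2BK had 74.1% shared words over its coding region, HIST2H2AC 30.5% and HIST2H2BF 25.7%, and their counts are uncertain for the same reason.

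**Figure D1:**
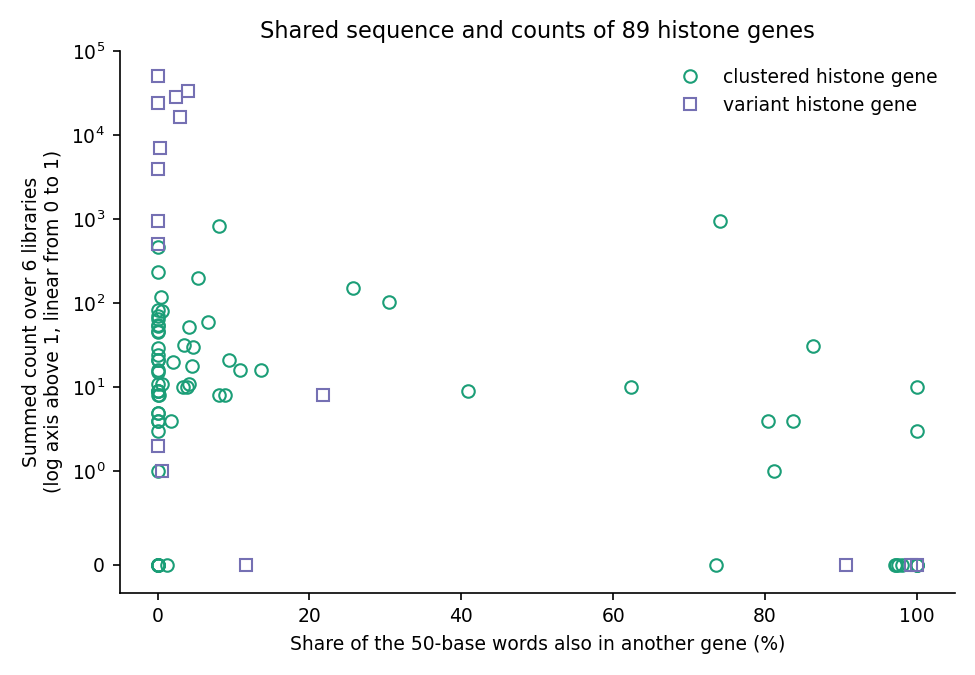
Summed count over 6 libraries (vertical, log above 1) against the share of 50-base words found in another gene (horizontal, percent) for 73 clustered and 16 variant histone genes. Most genes above 100 counts share few words, HIST1H2BK at 74.1% stands apart, and a group with 90% or more lies at 0 to 10 counts.

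The clustered histones made up a small and, with WFA, larger part of the histone counts in these poly(A)-selected libraries. Their counts summed to 623, 538 and 462 in DMSO replicates 1 to 3 and to 887, 871 and 758 in WFA replicates 1 to 3. As CPM, the sums were 43.8, 42.5 and 38.5 with DMSO and 72.5, 70.1 and 70.5 with WFA. All 3 WFA libraries therefore lay above all 3 DMSO libraries, and the means were 41.6 ± 2.77 and 71.0 ± 1.23 CPM (SD, n = 3), 1.71-fold higher with WFA.

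The variant sum went the other way. It was 2350, 2450 and 2290 CPM with DMSO and 1960, 2120 and 1920 CPM with WFA, so the groups did not overlap here either, and the ratio of the means was 0.844. For every 100 variant CPM there were 1.86, 1.73 and 1.68 clustered CPM in the DMSO libraries and 3.70, 3.32 and 3.67 in the WFA libraries. Libraries with the same replicate number were taken to be from the same experiment. Within these pairs, the clustered sum differed by 0.73, 0.72 and 0.87 on the log2 scale and the variant sum by -0.26, -0.21 and -0.25. No p-value is attached to these sums, since the members were chosen with results known.

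Few genes carried the clustered sum. HIST1H2BK, HIST2H2BE and HIST1H1C held 53.9% of all clustered counts. The 7 clustered genes that were called higher, which the test itself selected, summed to 21.4, 24.4 and 23.7 CPM with DMSO and to 50.4, 47.8 and 52.9 CPM with WFA. The other 66 summed to 22.4, 18.1 and 14.7 CPM with DMSO and to 22.1, 22.4 and 17.7 CPM with WFA, and these values overlapped.

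By histone type, H2B genes had the largest sum, 25.7 ± 1.25 CPM with DMSO and 47.3 ± 1.87 CPM with WFA (SD, n = 3), and the libraries did not overlap. H1 genes went from 6.98 ± 0.993 to 10.1 ± 0.630 CPM and H2A genes from 4.73 ± 0.900 to 8.37 ± 0.705 CPM (SD, n = 3 each), also without overlap. H4 genes had 3.34 ± 1.43 and 3.99 ± 0.731 CPM and H3 genes 0.805 ± 0.169 and 1.26 ± 0.312 CPM (SD, n = 3 each), and in both types the groups overlapped. The lack of overlap in H1 and in H2A depended on a single gene each. Without HIST1H1C, H1 had 3.45, 1.66 and 1.42 CPM with DMSO and 2.29, 2.26 and 1.86 CPM with WFA. Without HIST1H2AC, H2A had 5.28, 3.95 and 3.25 CPM and then 5.39, 6.52 and 4.93 CPM, and both then overlapped. The H2A means were then 4.16 and 5.62 CPM, with the WFA library the higher in each experiment. The H1 means were 2.17 and 2.13 CPM. For H3 and H4 no difference beyond the spread was detectable at this depth.

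**Figure D2:**
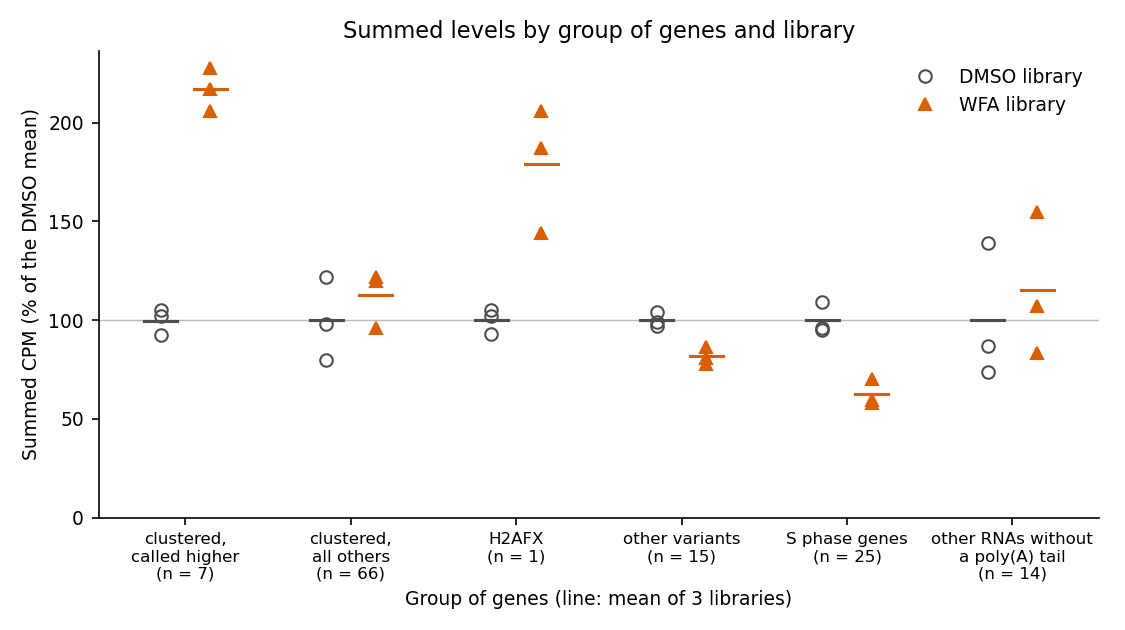
Summed CPM per library as a percentage of the DMSO mean (vertical, from 0) for 6 groups of genes, with open circles for DMSO, triangles for WFA and lines at the means of 3 libraries. The 7 clustered genes called higher lie at 206 to 228% with WFA and H2AFX at 144 to 206%, while the other variants lie at 77.6 to 86.5% and the S phase genes at 58 to 70.1%.

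A gene was called when its edgeR quasi-likelihood p-value, adjusted by Benjamini-Hochberg over the 12854 tested genes, was under 0.05. Of all tested genes, 25.8% were called higher with WFA and 24.7% lower. Of the 14 tested clustered genes, 7 were called higher, 0 lower and 7 neither, with a median log2 fold change of 0.75 against 0.02 for all tested genes. On the lower side 0 had an unadjusted edgeR p under 0.05 and 0 were called by DESeq2, which called 5 higher. In 8 of the 14, every WFA library lay above every DMSO library, as in 29.6% of all tested genes, and in 0 of the 14 every WFA library lay below, as in 28.5%. HIST1H2AC and HIST1H2BC had no DMSO library over the filter limit and HIST1H4H had 1, so these 3 passed mainly because they were higher with WFA, and the 14 are not a sample of all clustered genes.

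**Figure D3:**
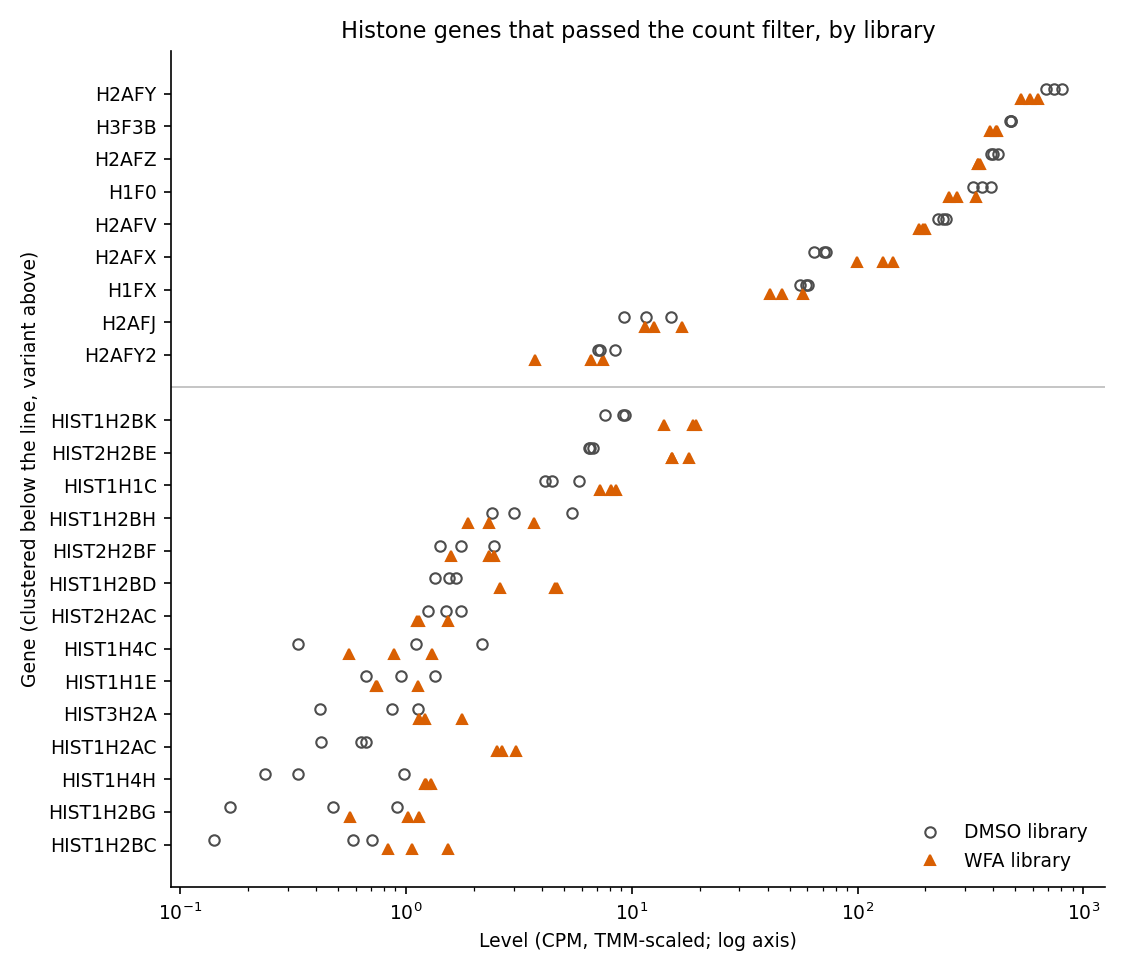
CPM (horizontal, log axis) of the 14 clustered and 9 variant genes that were tested, with open circles for the 3 DMSO and triangles for the 3 WFA libraries. The triangles of HIST2H2BE, HIST1H2BK, HIST1H1C, HIST1H2BD and HIST1H2AC lie right of all circles, while those of H2AFY, H3F3B, H2AFZ and H2AFV lie left of them.

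The linker histone genes differed from each other. HIST1H1C, which encodes the linker histone H1.2, had 59, 74 and 53 counts with DMSO and 89, 106 and 87 with WFA. Its groups did not overlap, and its level rose from 4.80 ± 0.911 to 7.97 ± 0.643 CPM (SD, n = 3 each; log2 fold change 0.73, standard error 0.19, adjusted p = 0.00413). HIST1H1E, which encodes H1.4, had 19, 12 and 8 counts with DMSO and 9, 14 and 8 with WFA. Its groups overlapped, and the log2 fold change of -0.19 (95% interval -0.98 to 0.60, adjusted p = 0.698) left either direction possible. HIST1H1B, the H1.5 gene, was not tested, with 13, 3 and 6 counts with DMSO and 9, 8 and 8 with WFA.

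Among the H2A genes, HIST1H2AC changed most. It had 6, 8 and 8 counts with DMSO and 31, 33 and 33 with WFA. The replicates were close to each other and the groups far apart, with 0.573 ± 0.132 and 2.75 ± 0.282 CPM (SD, n = 3 each). The log2 fold change came to 2.26, with a standard error of 0.31 and an adjusted p of 2.53e-05. The other H2A genes were not called. HIST2H2AC had 25, 19 and 15 counts with DMSO and 14, 19 and 12 with WFA, and its groups overlapped (log2 fold change -0.25, 95% interval -0.89 to 0.39, adjusted p = 0.508). HIST3H2A had 16, 11 and 5 counts with DMSO and 14, 22 and 13 with WFA. Its CPM values did not overlap, though the closest were 1.13 and 1.14, and the log2 fold change of 0.75 (95% interval -0.05 to 1.55) was not called, with an adjusted p of 0.111. HIST1H2AG was below the filter, with 8, 7 and 7 counts and then 10, 15 and 5.

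Of the 7 tested H2B genes, 4 were called higher. HIST2H2BE had 93, 82 and 81 counts with DMSO and 185, 188 and 192 with WFA, and HIST1H2BK had 108, 116 and 112 and then 228, 173 and 206. These are the most counted clustered genes, and in both each WFA library exceeded each DMSO library. HIST2H2BE rose from 6.59 ± 0.143 to 16 ± 1.58 CPM (SD, n = 3 each; log2 fold change 1.28, standard error 0.14, adjusted p = 3.82e-06). HIST1H2BK rose from 8.70 ± 0.956 to 17.2 ± 2.88 CPM (SD, n = 3 each; log2 fold change 0.99, standard error 0.16, adjusted p = 0.000109).

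HIST1H2BD had 22, 17 and 20 counts with DMSO and 56, 58 and 28 with WFA. The third WFA library was the lowest of its group and still above all DMSO libraries (log2 fold change 1.38, standard error 0.28, adjusted p = 0.000707). The span of HIST1H2BD overlaps LARP1P1 on the same strand and AL353759.1 on the opposite strand. HIST1H2BC had 2, 9 and 7 counts with DMSO and 13, 19 and 9 with WFA, which gave a log2 fold change of 1.29 with a standard error of 0.47 and an adjusted p of 0.0310. The groups touched in raw counts at 9, and the DESeq2 adjusted p was 0.118. The call of HIST1H2BC was also lost without DMSO replicate 1 (log2 fold change 0.82, adjusted p = 0.145), WFA replicate 1 (1.35, adjusted p = 0.0562) or WFA replicate 2 (1.02, adjusted p = 0.130).

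The 3 tested H2B genes that were not called overlapped between the groups. HIST1H2BH, the third most counted H2B gene, had 43, 69 and 29 counts with DMSO and 23, 46 and 25 with WFA (log2 fold change -0.45, 95% interval -1.14 to 0.23, adjusted p = 0.258). HIST2H2BF had 35, 18 and 21 counts and then 30, 29 and 17 (log2 fold change 0.17, 95% interval -0.44 to 0.79, adjusted p = 0.642). HIST2H2BF overlaps FCGR1A on the opposite strand, and whether strand was used in counting is not given in the sources used here. HIST1H2BG had 13, 6 and 2 counts and then 14, 7 and 11 (log2 fold change 0.74, 95% interval -0.30 to 1.79, adjusted p = 0.224). These intervals leave room for a rise of the size seen in HIST1H1C for HIST2H2BF and HIST1H2BG, whereas that of HIST1H2BH ends below such a rise.

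Of the H4 genes, HIST1H4H had 14, 3 and 4 counts with DMSO and 15, 16 and 13 with WFA. DMSO replicate 1 alone came near the WFA libraries, and the log2 fold change came to 1.20, with a standard error of 0.44 and an adjusted p of 0.0336. The call of HIST1H4H was lost in DESeq2 (adjusted p = 0.116) and without any 1 of 5 libraries, with adjusted p-values of 0.143 without DMSO replicate 2, 0.118 without DMSO replicate 3, and 0.0710, 0.0701 and 0.0623 without WFA replicates 1, 2 and 3. HIST1H4C had 31, 14 and 4 counts with DMSO and 16, 11 and 6 with WFA, a wide spread within the DMSO group (log2 fold change -0.42, 95% interval -1.49 to 0.66, adjusted p = 0.514). HIST1H4E, not tested, had 8, 8 and 12 counts and then 10, 8 and 9. The 59 clustered genes that were not tested summed to 9.64, 6.32 and 7.75 CPM with DMSO and 12.3, 10.5 and 9.12 CPM with WFA. The groups overlapped, and within each experiment the WFA library was the higher.

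**Figure D4:**
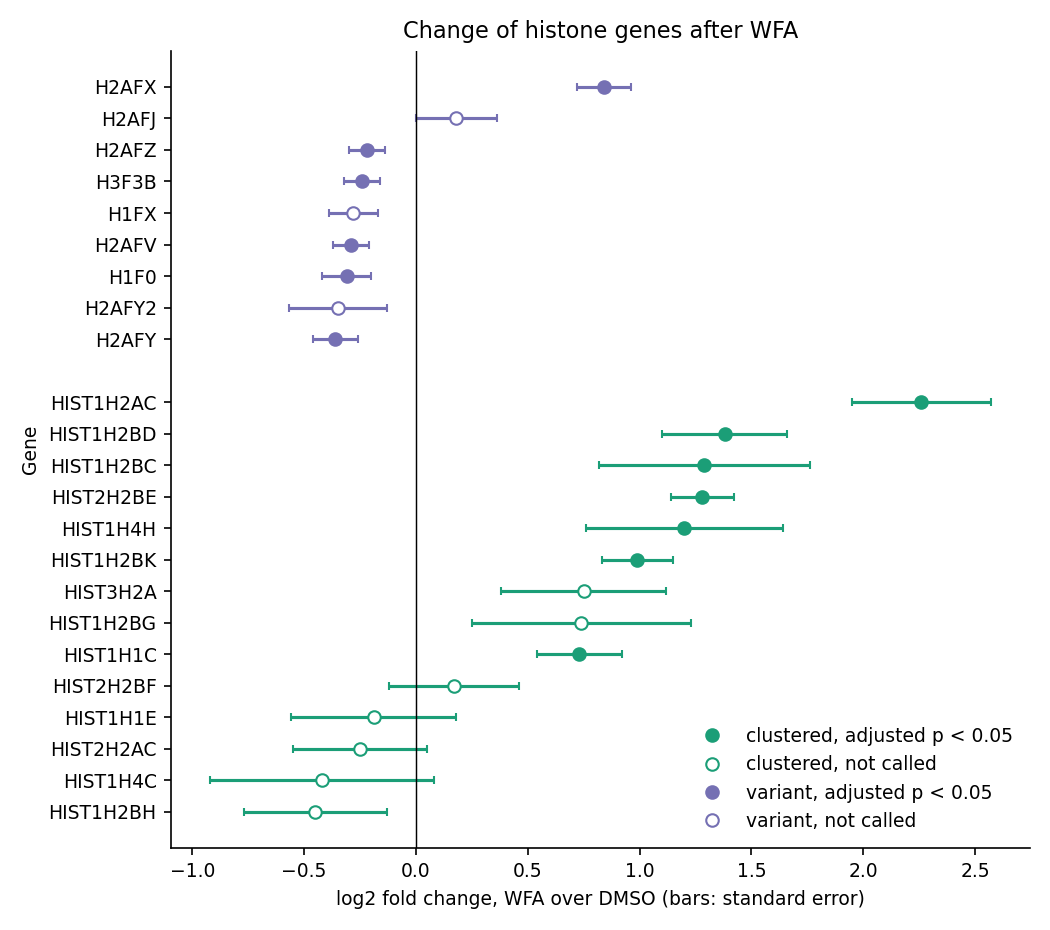
log2 fold change (WFA over DMSO, horizontal) with its standard error for the 23 tested histone genes, filled where the adjusted p was under 0.05. The 7 called clustered genes lie between 0.73 and 2.26, H2AFX lies at 0.84, and the 5 called lower variants lie between -0.36 and -0.22.

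The sequence features above were then counted in called and uncalled clustered genes, as a description. A stem-loop was in the model of 5 of the 7 called genes and 4 of the 7 tested genes that were not called. It was followed by 100 or more bases in 4 and 4 of them. In RefSeq, whose gene spans include introns, 4 of the 7 called genes and 1 of the 7 uncalled genes spanned over 1000 bases. Among the 44 clustered genes with counts below the filter, 1 did, and among the 15 without counts, 4 did.

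Many H2A and H2B genes stand head to head, with less than 1000 bases between their starts, and 12 such pairs were found. In the pair on chromosome 6 that lies 219 bases apart, both partners were called higher, HIST1H2AC (22 counts over the 3 DMSO libraries and 97 over the 3 WFA libraries) and HIST1H2BC (18 and 41). Both passed the filter through the WFA libraries alone, so their shared direction is partly set by the filter. On chromosome 1, HIST2H2BE (256 and 565) stood 323 bases from HIST2H2AC (59 and 45), which was not called. HIST1H2BK (336 and 607) stood 331 bases from HIST1H2AH, which had 6 and 4 counts. In the last 2 of these pairs, which were chosen after their values were seen, the partners had very different counts. Most of the other pairs had few counts in either gene. The models of HIST1H2BK and HIST2H2AC are of the coding region alone and both share sequence with other genes, so the contrast within these pairs is uncertain.

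**Figure D5:**
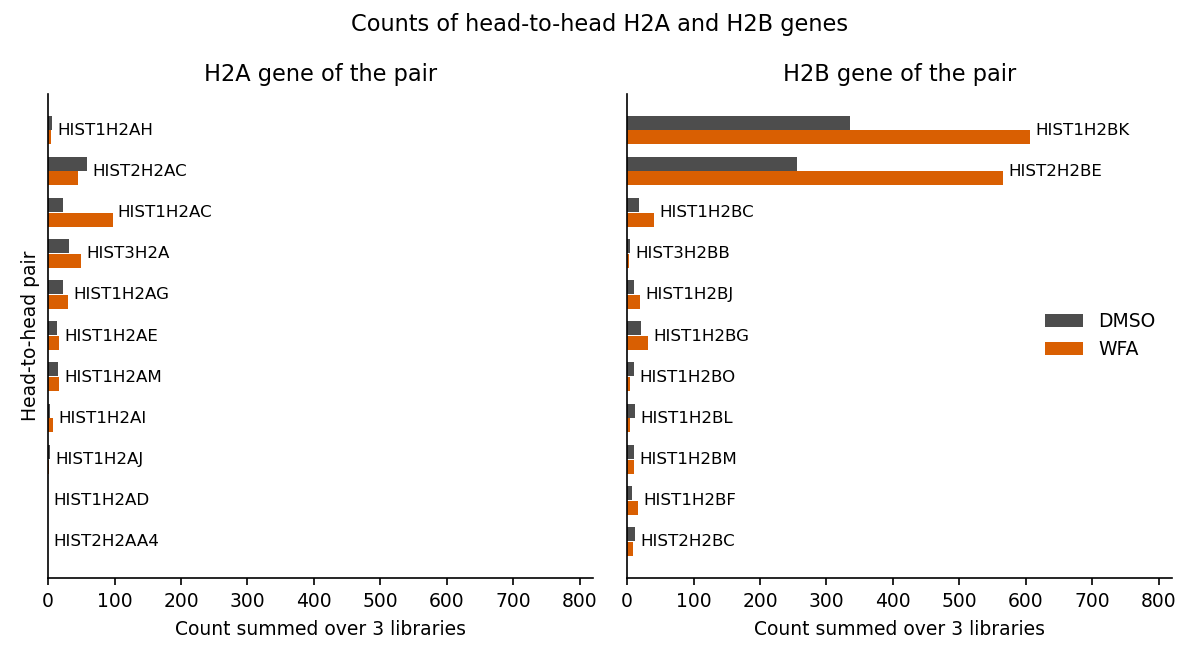
Counts summed over 3 DMSO and over 3 WFA libraries (bars from 0) for the H2A gene (left) and the H2B gene (right) of the 11 head-to-head pairs with a count, 1 pair per row. HIST1H2BK and HIST2H2BE stand out among the H2B genes, while their partners HIST1H2AH and HIST2H2AC have at most 59 counts per group.

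The promoters of the 4 histone genes called higher with the smallest p-values are shown next, from 250 bases before to 50 after the RefSeq start (GRCh38.p14), 5′ to 3′ on the strand of the gene, with TATAAA and CCAAT in capitals on either strand (read as TTTATA and ATTGG on the other). HIST2H2BE lies at chr1:149886633-149886932 on the minus strand, HIST1H2BK at chr6:27146809-27147108 on the minus strand, HIST1H2AC at chr6:26123922-26124221 on the plus strand, and H2AFX at chr11:119095416-119095715 on the minus strand. The window of HIST2H2AC, chr1:149886668-149886967 on the plus strand, covers most of the same bases as that of HIST2H2BE.
HIST2H2BE promoter: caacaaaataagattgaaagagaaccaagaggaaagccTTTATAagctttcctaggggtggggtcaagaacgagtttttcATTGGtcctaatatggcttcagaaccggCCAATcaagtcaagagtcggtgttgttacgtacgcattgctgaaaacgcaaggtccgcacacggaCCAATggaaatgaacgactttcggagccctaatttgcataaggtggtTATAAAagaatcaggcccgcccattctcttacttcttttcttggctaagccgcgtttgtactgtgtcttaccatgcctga
HIST1H2BK promoter: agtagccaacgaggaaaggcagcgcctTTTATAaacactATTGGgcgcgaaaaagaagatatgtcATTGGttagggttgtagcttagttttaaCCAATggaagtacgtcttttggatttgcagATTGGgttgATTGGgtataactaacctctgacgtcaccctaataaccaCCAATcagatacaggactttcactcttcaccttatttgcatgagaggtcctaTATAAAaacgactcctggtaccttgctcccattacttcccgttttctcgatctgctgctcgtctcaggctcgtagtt
HIST1H2AC promoter: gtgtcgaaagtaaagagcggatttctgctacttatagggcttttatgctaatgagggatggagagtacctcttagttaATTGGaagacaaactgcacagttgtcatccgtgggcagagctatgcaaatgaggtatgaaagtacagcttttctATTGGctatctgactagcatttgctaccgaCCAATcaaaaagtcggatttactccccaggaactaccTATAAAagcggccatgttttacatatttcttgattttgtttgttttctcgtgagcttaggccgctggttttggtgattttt
H2AFX promoter: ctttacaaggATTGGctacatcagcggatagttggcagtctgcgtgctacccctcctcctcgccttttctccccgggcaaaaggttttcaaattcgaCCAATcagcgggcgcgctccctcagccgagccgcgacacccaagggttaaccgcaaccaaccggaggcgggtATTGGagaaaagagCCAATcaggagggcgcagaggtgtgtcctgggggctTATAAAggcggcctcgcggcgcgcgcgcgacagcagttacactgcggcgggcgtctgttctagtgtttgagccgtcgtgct

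TATAAA, the core of the TATA box, was in 66.2% of the 65 clustered promoters found in the RefSeq table, against 12% of 27305 promoters. CCAAT, the site bound by NF-Y, was in 84.6% against 35.7%. The 7 clustered genes called higher had TATAAA in 5 and CCAAT in 6, and of the 6 uncalled genes with a promoter 3 had TATAAA and 6 had CCAAT. Windows of neighboring genes can overlap, and a site in both was then counted for each gene. The only TATAAA of HIST1H2AC and that of HIST1H2BC are the same site, and HIST1H2AD and HIST1H3D have the same window. Of 14 variant promoters, 4 had TATAAA and 11 had CCAAT. The HIST2H2BE window held 2 TATAAA and 3 CCAAT, and the HIST2H2AC window also held 2 and 3. The H2AFX window held 1 TATAAA and 4 CCAAT.

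H2AFX was the exception among the variants. It encodes H2A.X, whose phosphorylated form marks DNA breaks, and its gene is known to yield both stem-loop and polyadenylated messages. It had 1036, 899 and 774 counts with DMSO and 1222, 1610 and 1535 with WFA. In CPM the values were 72.9, 71.0 and 64.5 and then 99.8, 130 and 143, so the groups did not overlap and WFA replicate 1 was the lowest of its group. The log2 fold change came to 0.84, with a standard error of 0.12 and an adjusted p of 2.87e-05. H2AFX was called higher in all 12 fits that were run, with log2 fold changes between 0.73 and 0.97.

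Of the 9 tested variant genes, 5 were called lower and 1 higher, against 24.7% lower and 25.8% higher of all tested genes. The median log2 fold change of the 9 was -0.28. In 4 of them every WFA library lay below every DMSO library, as in 28.5% of all tested genes. The number called lower was 6 with the block, DESeq2 size factors, total counts or no filter, 3 without DMSO replicate 1 or WFA replicate 1 and 2 without DMSO replicate 2 or WFA replicate 3. H2AFY, which encodes macroH2A1, was the most counted member, with 745, 807 and 680 CPM with DMSO and 579, 627 and 529 CPM with WFA. Its groups did not overlap (log2 fold change -0.36, standard error 0.10, adjusted p = 0.00644). H2AFY overlaps C5orf66 on the opposite strand. Its paralog H2AFY2, for macroH2A2, was far lower, with 8.44, 7.27 and 7.08 CPM and then 7.43, 6.60 and 3.72 CPM, and was not called (log2 fold change -0.35, 95% interval -0.82 to 0.12, adjusted p = 0.197).

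Both H2A.Z genes were called lower. H2AFV, for H2A.Z.2, had 239, 227 and 247 CPM with DMSO and 200, 194 and 187 CPM with WFA (log2 fold change -0.29, standard error 0.08, adjusted p = 0.00763). H2AFZ, for H2A.Z.1, had 417, 398 and 389 CPM and then 350, 341 and 342 CPM (log2 fold change -0.22, standard error 0.08, adjusted p = 0.0372). Both sets of libraries were separate, though the call of H2AFZ was lost without any 1 of 5 libraries (adjusted p between 0.0568 and 0.138) and held without DMSO replicate 3. The span of H2AFZ overlaps AC097460.1 on the opposite strand. H2AFJ, which encodes a mammalian H2A variant, had 11.6, 15 and 9.25 CPM and then 12.5, 16.7 and 11.5 CPM and was not called (log2 fold change 0.18, 95% interval -0.21 to 0.58, adjusted p = 0.427).

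H3F3B, which encodes the replacement histone H3.3, had 475, 480 and 478 CPM with DMSO and 415, 410 and 387 CPM with WFA. The DMSO values were within a few CPM of each other and above all WFA values (log2 fold change -0.24, standard error 0.08, adjusted p = 0.0239). Its call was lost without DMSO replicate 1, DMSO replicate 2 or WFA replicate 3, with adjusted p-values of 0.0638, 0.0517 and 0.0711. The span of H3F3B overlaps UNK on the opposite strand and MIR4738 on the same strand. H3F3A, the other H3.3 gene, had no count in any library. A pseudogene of the same family that is no member, H3F3AP4, had 952, 854 and 685 counts with DMSO and 817, 932 and 577 with WFA, and it is named here after its values were seen. Whether reads of H3F3A were counted on other rows was not tested. H3F3C had at most 3 counts per library.

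The replication-independent linker genes were both lower in the mean. H1F0, for H1.0, had 326, 390 and 356 CPM with DMSO and 254, 334 and 275 CPM with WFA. WFA replicate 2 overlapped the DMSO range, and the log2 fold change came to -0.31, with a standard error of 0.11 and an adjusted p of 0.0257. That call was lost without DMSO replicate 2 or 3 or WFA replicate 1 or 3, with adjusted p-values of 0.0931, 0.0509, 0.120 and 0.0780. H1FX, for H1.10, had 55.8, 59.0 and 60.4 CPM and then 40.8, 57.1 and 46.5 CPM, which also overlapped. It was not called (log2 fold change -0.28, adjusted p = 0.0555) but was with the experiment as a block (adjusted p = 0.00416), with DESeq2 size factors (0.0456), with total counts (0.0175), with no filter (0.0226) and without WFA replicate 2 (0.0047). Without WFA replicate 1 its log2 fold change was -0.17. H1FNT, a testis gene, had 1, 1 and 0 counts with DMSO and 0 with WFA, and H1FOO, an oocyte gene, had 1 count in WFA replicate 1.

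Levels between genes were compared as CPM per 1000 bases of annotated exon, joined over all transcripts of a gene, in the DMSO libraries. On this measure H2AFZ (174), H1F0 (152) and H3F3B (77.9) were the highest, followed by H2AFV (50.1), H2AFX (43.1), H2AFY (42.0) and H1FX (38.8). Genes with many transcripts are set lower by it, so the order depends on the models. H2AFY, with 744 CPM, was divided by 17730 bases from 20 transcripts. H3F3B, with 478 CPM, was divided by 6134 bases, although its RefSeq span is 3346 bases. HIST2H2BE had 3 and HIST1H1C 7.48, and H2AFY2 and H2AFJ, with 3.84 and 3.58, lay in the same range as these clustered genes. HIST1H2BK had 22.8 over a model of 381 bases, whereas RefSeq gives the gene a span of 8566 bases, so its value depends on the model.

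Among genes for stem-loop processing, histone gene transcription and decay, more were called lower than higher. All 26 listed genes were tested. Of these, 3 were called higher, 11 lower and 12 neither, against 25.8% higher and 24.7% lower of all tested genes. Their median log2 fold change was -0.20. Scaled to total counts instead of TMM, 17 were called lower, and over all tested genes the calls lower went from 3178 to 3875. SLBP itself had 172, 171 and 154 CPM with DMSO and 182, 169 and 176 CPM with WFA, which overlapped (log2 fold change 0.09, 95% interval -0.09 to 0.27, adjusted p = 0.415). NPAT, the activator of histone genes at histone locus bodies, had a log2 fold change of -0.18 (95% interval -0.41 to 0.04, adjusted p = 0.159). CASP8AP2 (FLASH), which joins the U7 machinery, fell by 0.24 on the log2 scale (standard error 0.09, adjusted p = 0.0435), a call that was lost in 5 of the 6 fits that left out a library.

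ZNF473 (ZFP100), a partner of the U7 snRNP, rose from 52.3 ± 2.66 to 80.5 ± 8.05 CPM (SD, n = 3 each; log2 fold change 0.62, adjusted p = 7.28e-05). ZCCHC6, a uridylyl transferase that takes part in histone mRNA decay, rose from 61.2 ± 6.36 to 92.5 ± 6.58 CPM (SD, n = 3 each; log2 fold change 0.60, adjusted p = 0.00013). Among components of Sm and Lsm rings, SNRPG differed by -0.47 on the log2 scale (standard error 0.09, adjusted p = 0.000333) and LSM1 by -0.40 (standard error 0.09, adjusted p = 0.00115).

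Of 32 histone chaperones and importers, 31 were tested. Of these, 3 were called higher, 15 lower and 13 neither, against 25.8% higher and 24.7% lower of all tested genes. Their median log2 fold change was -0.29. Scaled to total counts, 1 was called higher and 18 lower, and 1 was called higher without DMSO replicate 1, DMSO replicate 2 or WFA replicate 1. SUPT16H, a subunit of the FACT complex that handles H2A and H2B, fell from 508 ± 46.9 to 250 ± 8.08 CPM (SD, n = 3 each; log2 fold change -1.02, adjusted p = 4.05e-07). HJURP, which loads the centromeric H3 variant, and IPO4, an importer of H3 and H4, had log2 fold changes of -0.65 and -0.64 (adjusted p = 4.27e-05 and 6.95e-05). ASF1A, an H3 and H4 chaperone, rose from 69.1 ± 1.79 to 117 ± 10.2 CPM (SD, n = 3 each; log2 fold change 0.76, adjusted p = 5.25e-06). SPTY2D1, an H3 and H4 chaperone, was also called higher (log2 fold change 0.28, adjusted p = 0.0231). Its call was lost in DESeq2 (adjusted p = 0.0514), with total counts (0.109) and without DMSO replicate 1 (0.0773), DMSO replicate 2 (0.0891) or WFA replicate 1 (0.105).

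S phase genes were measured because clustered histones are expressed with them. Of 25 listed, 1 was called higher, 19 lower and 5 neither, against 25.8% higher and 24.7% lower of all tested genes. The median log2 fold change of the 25 was -0.60. Their summed level was 4640, 4110 and 4060 CPM with DMSO and 2990, 2540 and 2480 CPM with WFA, without overlap, while the clustered histone sum was higher in the same WFA libraries. UNG, a uracil glycosylase, CCNE1, the cyclin of S phase entry, RRM2, a ribonucleotide reductase subunit, and MCM3, a helicase subunit, had log2 fold changes of -1.73, -1.34, -1.54 and -1.18 (adjusted p = 4.48e-08, 2.91e-07, 4.38e-07 and 5.62e-07). MCM5, another helicase subunit, was called higher (log2 fold change 0.39, adjusted p = 0.0106). The cell cycle distribution was not measured by these libraries. The study examined the cell cycle separately and reports no change with WFA at the exposure time used here, only after a longer exposure. The part of the cell cycle in the S phase gene and histone values was not tested.

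Other RNAs that lack a poly(A) tail give a view of how much such RNA entered each library. Of 14 listed, 12 had a count, 5 were tested and 0 were called in edgeR in either direction, with a median log2 fold change of 0.27. At an unadjusted p under 0.05 the number was also 0, and DESeq2 called 0. Their sum was 18.6, 11.7 and 9.91 CPM with DMSO and 20.8, 14.4 and 11.2 CPM with WFA. In each group replicate 1 was the highest and replicate 3 the lowest, the groups overlapped, and the WFA library was the higher of the 2 in each experiment. The clustered histone sum had no overlap between the groups, but that of the 66 clustered genes not called higher did overlap. With DMSO these 66 were also highest in replicate 1 (22.4 CPM) and lowest in replicate 3 (14.7 CPM). With WFA they had 22.1, 22.4 and 17.7 CPM. The part of non-polyadenylated RNA in the histone counts was not tested further.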

How the data were processed

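Poly(A)-selected RNA of 3 DMSO and 3 WFA samples of THP1 cells was sequenced. The authors deposited whole-number read counts per gene symbol, with no normalization. Per the labels, the processing notes name bcl2fastq 2.19, Trimmomatic, Bowtie2, Picard, featureCounts, DESeq2 and build hg38, while settings, strand and the handling of multiply mapped reads are not given in the sources used here. Another 6 columns of scaled counts and the authors' own comparison (fold changes, p-values, adjusted p-values) were not used.

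Counts were compared with the quasi-likelihood test of edgeR 4.0.16 (R 4.3.3, limma 3.58.1), with TMM scaling, filterByExpr at a minimum count of 10 and Benjamini-Hochberg adjustment over 12854 genes. Total counts of 11006035 to 13872810 per library set the precision. The test was run on simulated data before use. Standard errors are on the log2 scale. An exact permutation test over 3 and 3 libraries has 0.1 as its smallest p, so none is given.

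The members and gene lists were chosen with earlier results of these data known. Named were all variant members with a count, all clustered members that were tested, the 3 most counted clustered members that were not, and from each list up to 4 called genes with the smallest p-value and up to 2 against its main direction, plus SLBP, NPAT and CASP8AP2. Pairs of libraries came from replicate numbers. Libraries of the same number share a string of digits in the labels that reads as a date, from which a shared experiment was inferred. Same-numbered libraries deviated together (correlations 0.25, 0.38 and 0.27), others between -0.30 and 0.02. Replicate libraries differed by more than sampling noise (chi-square per gene 5.67 to 10.4), so none was a duplicate. Alternatives were a replicate block, DESeq2 1.42.0, other scalings, no filter and leaving out each library. Sequences came from GENCODE 29 and from RefSeq promoters on GRCh38.p14, in which 65 clustered and 14 variant members were found. Members were matched by symbol. The result of 1 marker gene is not reported here.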

Additional observations from a re-analysis of the deposited data

How the results depend on the processing

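The number of clustered genes called higher was 7 with the replicate block, with DESeq2 size factors and with total counts, 8 without the low-count filter, 5 in DESeq2's Wald test and 5 to 6 when a library was left out. The clustered sum stayed higher by 0.69 to 0.81 on the log2 scale. With the replicate block the only member whose call changed was H1FX, which was then called lower (adjusted p = 0.00416). The block fit had infinite prior degrees of freedom, against 10.8 without it, so its p-values are far smaller. Variant genes called lower numbered 2 to 5 when a library was left out, genes of the stem-loop list called lower 8 to 11, and chaperones called higher 1 to 3. Scaled to total counts, which moved the median of all genes by -0.08, 17 stem-loop list genes were called lower and 1 chaperone higher, and the variant sum differed by -0.33. Without the most counted members, HIST1H2BK and H2AFY, the clustered to variant ratio differed by 0.90 instead of 1.02. With a library left out, uncalled log2 fold changes ran from -0.43 to 0.11 for HIST1H1E and from -0.84 to 0.35 for HIST1H4C, whose upper ends were without DMSO replicate 1, and from 0.00 (without DMSO replicate 2) to 0.43 for HIST2H2BF. The causes were not tested. Of 253 comparisons of a tested member with an alternative, 223 kept the direction and the side of the threshold. Depth limits the clustered genes, of which 59 of 73 were too low to test.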
